A study of Mus musculus with 25 samples.

Results

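The testis of a 10-day-old mouse holds germ cells that are leaving mitosis and starting meiosis. The series profiled single cells of WT mice and of Ythdc2 KO mice at that age (P10), sorted for a 4N DNA content. Cells in meiotic prophase carry that amount, as do mitotic cells that have replicated. There was 1 WT library and there were 2 KO libraries, called KO A and KO B here. KO cells of 1 cluster were set against WT cells of another, with the clusters as named in the authors' deposited cell table. The KO cells came from the second of 2 clusters whose names join differentiating spermatogonia with the abbreviation L_Z, read here as leptotene and zygotene. The WT cells came from the cluster named L_Z_SCs, read as leptotene and zygotene spermatocytes. By this rule 335 cells of KO A and 510 cells of KO B, 845 in all, stood against 427 WT cells. Together these were 1272 of the 4528 deposited cells, and all 14103 genes of the table entered the comparison. Only 1 WT cell lay in the KO cluster, and it was called a doublet, so the genotypes could not be compared inside 1 cluster.

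The labels state that the KO mouse line came from earlier work. They give neither its strain nor the part of the gene that it lacks, and they name the hybrid background B6D2F1, a cross of C57BL/6 and DBA/2, for the other mutant lines of the series. The titles of the single-cell samples carry the word embryo beside P10, and the age label was followed. The sources used here do not say whether each library is 1 animal or a pool.

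In the male germ line, retinoic acid drives spermatogonia to differentiate, replicate their DNA once more and enter meiotic prophase. STRA8 and its partner MEIOSIN then switch on the genes that build the chromosome axis and the synaptonemal complex, and SPO11 breaks the DNA so that homologous chromosomes can recombine. Cells must at the same time shut down the cyclins and kinases that would drive a mitotic division. The RNA helicase YTHDC2, which also carries a YTH domain, works with MEIOC, RBM46 and the exoribonuclease XRN1, and male germ cells without it are known to enter meiosis and then fail, with a premature metaphase-like state.

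The WT spermatocytes held 5433721 UMIs (unique molecular identifiers, counts of captured RNA molecules), and the KO cells held 5493201 in KO A and 8310622 in KO B. The median cell had 12210 UMIs in WT, against 16099 in KO A and 16156 in KO B. Levels are therefore given as normalised UMIs per cell, the mean over cells of the UMI count divided by the authors' size factor. This scaling does not give each library the same total. The mean normalised total per cell was 11721 in WT against 10726 in KO A and 10690 in KO B. Values on cells thinned to an equal depth are given for a part of the results. Mitochondrial transcripts made up 5.50% of UMIs in the median WT cell and 4.73% and 4.28% in the KO libraries. An alternative with the KO cells of both mixed clusters added those of the first mixed cluster. The added cells were shallower, with medians of 8149 UMIs in KO A and 8563 in KO B. Their mitochondrial shares were higher, at 10.4% and 9.02%. The part of depth or of that share in shifts under this alternative was not tested. The KO libraries were not 1 library deposited again: over 10786 genes the chi-square of their counts was 2.60 for each degree of freedom. The libraries shared 0 cell barcodes. Markers of somatic testis cells were low, with a summed level of 29.1 CPM (counts per 1e6 UMIs) for the 8 Sertoli cell genes in the files in WT spermatocytes against 22.0 (KO A) and 48.3 (KO B), and the other 6 somatic and blood lists at 10.9 CPM or less in each library. Only 2 of their genes, both Sertoli cell genes, passed the filter on low values, and neither was called. Sox9 and Wt1, which define Sertoli cells, had 0 UMIs in WT spermatocytes and 1 to 3 in each KO library. The part of these low levels in any result was not tested.

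Genes with a mean of at least 0.05 normalised UMIs per cell were tested with limma on log2(normalised UMIs + 0.01), with an adjusted p under 0.05 as the threshold for a call. The following limits hold for every call. The authors clustered these same cells by expression, so the calls describe how the KO cluster and the WT cluster differ and are no independent test of the genotype. With a lone WT library, genotype and library cannot be told apart, and the spread comes from the KO libraries only (1 residual degree of freedom, prior degrees of freedom 34.0 shared across genes). The smallest exact permutation p that 1 library against 2 allows is 0.333, and since nothing in the sources says that the KO libraries are separate animals, the p-values may measure technical spread only.

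Ythdc2 itself checks the labels. Its level was 3.14 normalised UMIs per cell in WT spermatocytes, 0.391 in KO A and 0.398 in KO B. Both KO libraries lay 7.95-fold below WT on average (log2 difference -2.96, SE 0.106; limma, adjusted p = 1.78e-22). In differentiating spermatogonia of the same libraries it stood at 1.95 in WT against 0.570 (KO A) and 0.519 (KO B), which is low in both KO clusters, as the labels say. The UMIs that remain in KO cells can come from outside the missing part of the gene. Its partners moved less. Meioc, whose protein binds YTHDC2, had 8.06 in WT against 6.25 (KO A) and 6.15 (KO B) (log2 -0.38, SE 0.0754, adjusted p = 4.85e-05). Rbm46, whose protein binds RNA in the same complex, had 3.01, 2.26 and 2.51 in the same order and was called lower (log2 -0.34), a call lost with CPM scaling and with no filter on low genes. Xrn1 had 0.496, 0.699 and 0.734 and was called higher (log2 0.52, adjusted p = 1.75e-04), and DESeq2 on the recovered counts did not call it.

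Over all genes, the KO cells differed widely from WT spermatocytes. Of 9250 genes tested, 5878 (63.5%) were called, 3262 (35.3%) higher and 2616 (28.3%) lower in KO. The median log2 difference over all tested genes was 0.08. The split moved with the scaling: CPM gave 3915 higher and 2048 lower with an all-gene median of 0.19, cells thinned to 5000 UMIs gave 3028 and 1571 with the same rounded median, and DESeq2 gave 1442 and 1731. Calls alone are therefore a weak mark of a gene, and a difference of 2-fold or more in both KO libraries is given beside them. At 20 CPM or more, 460 of 6559 genes (7.01%) were at least 2-fold higher and 280 (4.27%) at least 2-fold lower in both KO libraries. The balance of the 2 directions also depends on the filters, which use the mean over 1 WT and 2 KO libraries. A gene seen only in KO therefore passes at a lower level than one seen only in WT, which tilts the counts toward higher genes. With a minimum of 0.25 normalised UMIs the all-gene median was -0.02.

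**Figure D1:**
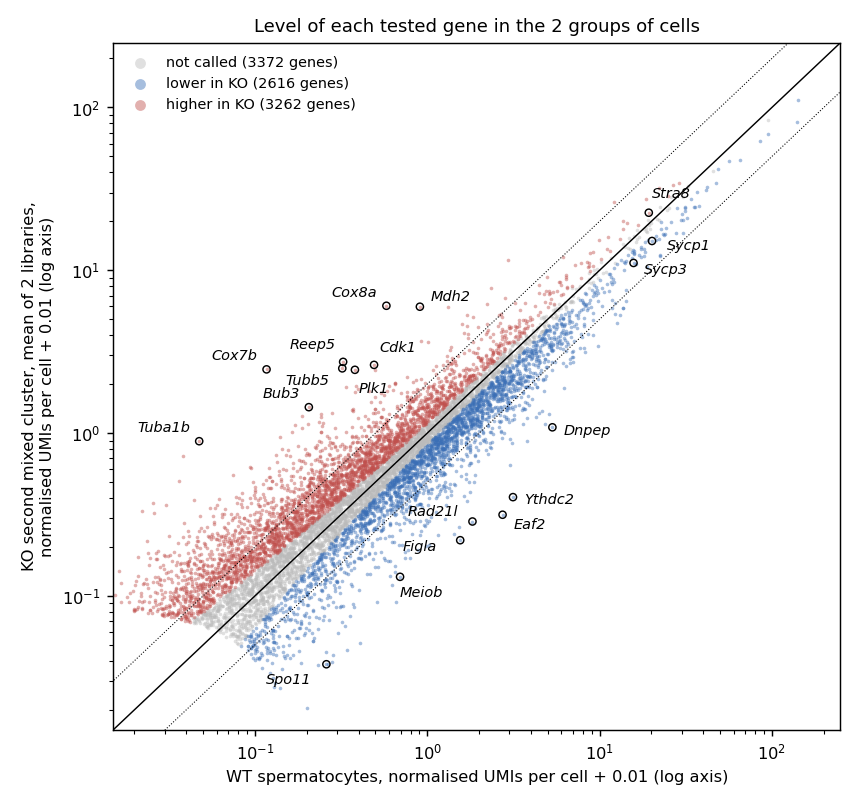
Mean normalised UMIs per cell, plus 0.01, of each of the 9250 tested genes in the 427 WT spermatocytes (x axis) and as the mean of the 2 KO libraries (y axis), both on log scales, coloured by call. The solid line marks equal levels and the dotted lines 2-fold; Eaf2, Ythdc2 and Rad21l lie far below the line, and Cox7b, Tuba1b and Cox8a far above it.

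Meiotic genes stood among the largest differences on the low side, and mitochondrial, cytoskeletal and metabolic genes on the high side. Eaf2, which encodes a factor of the ELL elongation complex, had 2.73 normalised UMIs per cell in WT against 0.298 (KO A) and 0.313 (KO B). It was 8.93-fold lower in KO (log2 -3.12, SE 0.114, adjusted p = 3.42e-22), and the KO level was near the 0.351 of WT differentiating spermatogonia. Figla, a basic helix-loop-helix factor best known from oocytes, had 1.54 in WT against 0.247 and 0.173. Dnpep, an aspartyl aminopeptidase, had 5.32 against 1.10 and 1.05. In each of these genes both KO libraries lay well below the WT library. At the other end, Cox7b (chromosome X, 106015700 to 106022450 in GRCm38.p6), a subunit of cytochrome c oxidase, had 0.107 in WT against 2.40 (KO A) and 2.51 (KO B). This 22.97-fold difference (log2 4.40, SE 0.102, adjusted p = 5.86e-28) rests on 52 UMIs in WT against 1251 and 1981.

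Synaptonemal complex genes, which encode the zipper between homologous chromosomes, were lower in the KO cells without exception among those tested. Of 8 genes, 8 were called lower and 0 higher, with a median log2 difference of -0.81 against 0.08 over all genes, and 8 of 8 were also lower with CPM, with DESeq2 and after thinning. Sycp3, the lateral element protein, had 15.7 in WT against 10.2 (KO A) and 11.96 (KO B), so the KO cells kept most of this transcript (log2 -0.51, SE 0.0832, adjusted p = 2.38e-06). Sycp1, the transverse filament protein, had 20.1, 15.2 and 15.1. The 3 largest differences in the list were those of Syce3, Tex12 and Syce2, which encode central element proteins. Syce3 had 3.58 in WT against 1.12 and 1.13 (3.19-fold), Tex12 8.23 against 3.21 and 3.06 (2.63-fold), and Syce2 12.4 against 5.54 and 5.23 (2.30-fold). Summed over the list, the level was 6820 CPM in WT spermatocytes and 4585 (KO A) and 4615 CPM (KO B), against 2818 CPM in WT differentiating spermatogonia. KO differentiating spermatogonia had 1974 (KO A) and 2176 CPM (KO B). Tex12 was 2.46-fold lower in KO than in WT cells of that cluster, Syce2 1.25-fold and Sycp3 1.06-fold.

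Chromosome axis and cohesin genes moved in both directions. Of 9 meiotic axis and cohesin genes, 6 were called lower and 3 higher, with a median of -0.86. Rad21l, a meiosis-specific kleisin of cohesin, had 1.82 in WT against 0.319 (KO A) and 0.235 (KO B) (6.58-fold lower; log2 -2.69, SE 0.138, adjusted p = 4.66e-18). Ccdc36, which encodes the break-promoting axis protein IHO1, was 4.01-fold lower, Stag3 2.25-fold and Smc1b, a meiotic SMC subunit, 1.82-fold. The axis protein gene Hormad1 differed less, with 8.22 against 6.25 and 5.74. Of the 11 genes of mitotic cohesin and its regulators, 3 were called higher and 5 lower. Rad21, the kleisin of mitotic cells, went the other way from Rad21l, with 0.362 in WT against 1.37 (KO A) and 1.41 (KO B) (3.84-fold higher). Cdca5, which encodes the cohesin protector sororin, was 3.17-fold higher, while Smc3, shared by both kinds of cohesin, was 1.96-fold lower.

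**Figure D2:**
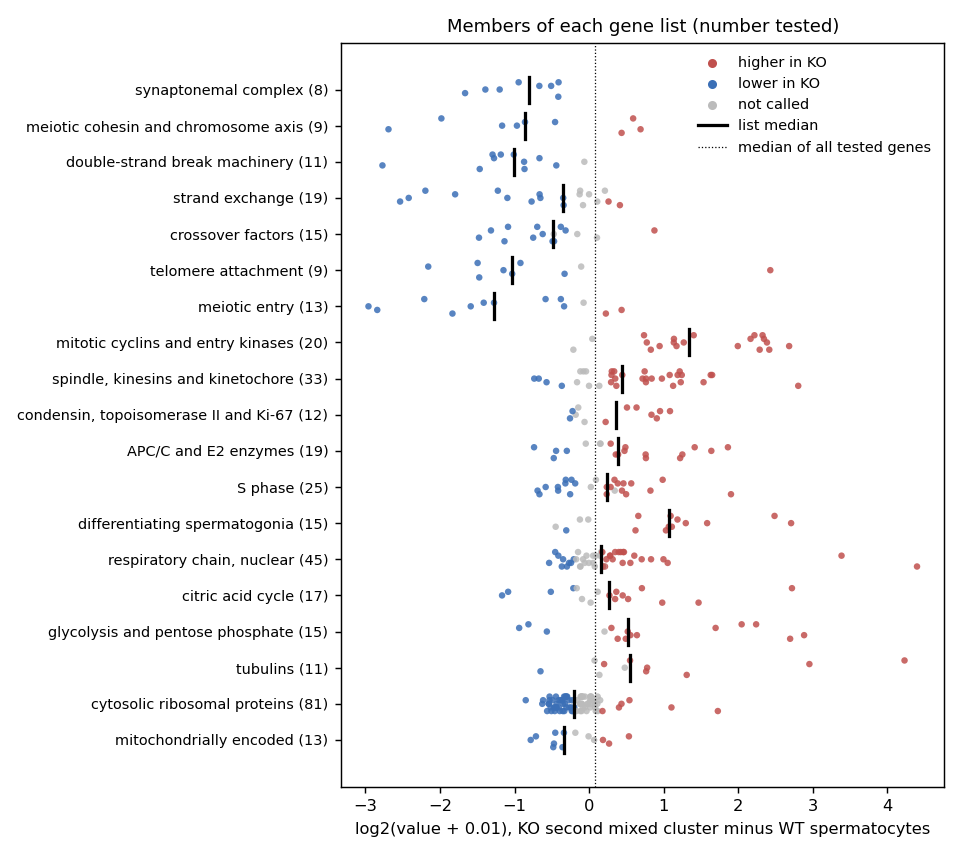
Log2 difference of KO second mixed cells minus WT spermatocytes (x axis) for each tested member of 19 gene lists (y axis); each point is 1 gene, each bar the list's median and the dotted line the median over all 9250 tested genes, 0.08. The synaptonemal complex list has all 8 members below 0, and the mitotic cyclins and entry kinases list has a median of 1.34.

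Genes for making and repairing double-strand breaks were mostly lower, with smaller medians in the repair lists. In the break-forming list 10 of 11 genes were called lower and 0 higher (median -1.01). Spo11, the enzyme that cuts the DNA, had 0.2499 in WT against 0.0277 in KO A and 0.0284 in KO B (8.91-fold lower; log2 -2.77, SE 0.293, adjusted p = 4.42e-10). Only 14 and 20 Spo11 UMIs were counted in the KO libraries, against 111 in WT. Mei1 was 2.79-fold and Ankrd31 2.46-fold lower, both needed for breaks to form. In the strand exchange list 11 of 19 genes were called lower and 2 higher (median -0.35). Dmc1, the meiotic recombinase, had 4.84 in WT against 2.99 (KO A) and 2.69 (KO B) (log2 -0.77). Meiob, a single-strand binding protein of meiosis, was 5.66-fold lower. Of 15 crossover genes 11 were called lower and 1 higher (median -0.49), and Msh5 and Hfm1, which stabilise crossover intermediates, were 2.82-fold and 2.19-fold lower. Tex11, a meiosis gene of the X chromosome in the same list, had 3.72 in WT against 3.77 and 4.25 and was not called.

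Telomere attachment genes, which tie chromosome ends to the nuclear envelope, had 7 of 9 members called lower and 1 higher (median -1.03). Terb1, the telomere adaptor, had 1.69 in WT against 0.367 and 0.375, and Ccdc155, which encodes KASH5, had 1.01 against 0.376 and 0.326. The member called higher was Lmnb1, a lamin of dividing cells, with 0.232 in WT against 1.17 (KO A) and 1.42 (KO B) (5.61-fold). Of 7 early pachytene genes that passed the filter on low values, out of 17 listed and 13 in the files, 4 were called lower and 1 higher. The filter removed 6. Hspa2, a chaperone of pachytene cells, had 0.942 in WT against 0.191 and 0.337.

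Regulators of meiotic entry were mostly lower, but Stra8, the retinoic acid target that starts meiosis, was not. It had 19.3 in WT spermatocytes, 23.5 in KO A and 21.6 in KO B, so both KO libraries stood slightly above WT and far above the 3.35 of WT differentiating spermatogonia. Its call as higher (log2 0.22, adjusted p = 0.0158) was lost with TMM, both edgeR scalings, DESeq2 and no filter, and with the KO cells of both mixed clusters the difference was -0.24. Gm4969, which encodes MEIOSIN, the partner of STRA8, was 3.64-fold lower, with 0.991 in WT against 0.298 (KO A) and 0.246 (KO B). Ccnb3, a cyclin of meiotic prophase, had 0.871 against 0.186 and 0.175. Dazl, the RNA-binding licensing factor, had 25.4 against 24.96 and 23.4 and was not called. In the whole list of 13 genes, which includes Ythdc2, 10 were called lower and 2 higher (median -1.28). In differentiating spermatogonia of the same libraries Gm4969 was 3.37-fold and Ccnb3 3.46-fold lower in KO. There Dazl was 1.26-fold lower and Stra8 1.57-fold higher in KO.

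The promoters of a few of these genes are printed because of known motifs. STRA8 and MEIOSIN are known to bind a sequence, CNCCTCAG, near the start sites of the genes they switch on. Many genes of the late cell cycle carry a CHR element, TTTGAA, which is known to be used by the DREAM and MMB complexes. Each window runs from 250 bases before to 50 bases after a RefSeq transcript start on GRCm38.p6. It is written in the direction of the gene, in lower case, with each match to either motif on either strand in capitals. Only windows that hold a match are printed, so they do not show how common a motif is. Tex12 (chr9:50561219-50561518, minus strand) has a TTTGAA 225 bases before the start and a CNCCTCAG on the other strand whose first base is 7 bases before it. Figla (chr6:86016941-86017240, plus strand) has CNCCTCAG at 91 bases before and at position 12 after the start. Eaf2 has 2 windows, chr16:36874777-36875076 and chr16:36828210-36828509, both on the minus strand, each with 1 CNCCTCAG. The mitotic kinases Plk1 (chr7:122159185-122159484, plus strand) and Cdk1 (chr10:69352863-69353162, minus strand) have TTTGAA, once in Plk1 at position 31 and at 71 and 15 bases before the start in Cdk1.
Tex12: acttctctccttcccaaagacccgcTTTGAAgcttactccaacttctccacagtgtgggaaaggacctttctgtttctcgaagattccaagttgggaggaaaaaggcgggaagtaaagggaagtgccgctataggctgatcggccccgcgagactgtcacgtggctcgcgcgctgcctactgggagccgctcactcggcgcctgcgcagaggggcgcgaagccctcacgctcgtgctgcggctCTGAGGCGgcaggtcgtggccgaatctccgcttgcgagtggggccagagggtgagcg
Figla: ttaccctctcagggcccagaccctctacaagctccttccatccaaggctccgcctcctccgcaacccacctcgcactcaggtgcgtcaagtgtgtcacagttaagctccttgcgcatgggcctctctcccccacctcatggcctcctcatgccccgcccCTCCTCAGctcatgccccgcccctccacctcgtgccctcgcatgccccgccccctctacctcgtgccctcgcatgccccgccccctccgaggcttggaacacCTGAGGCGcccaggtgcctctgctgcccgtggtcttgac
Eaf2, first window: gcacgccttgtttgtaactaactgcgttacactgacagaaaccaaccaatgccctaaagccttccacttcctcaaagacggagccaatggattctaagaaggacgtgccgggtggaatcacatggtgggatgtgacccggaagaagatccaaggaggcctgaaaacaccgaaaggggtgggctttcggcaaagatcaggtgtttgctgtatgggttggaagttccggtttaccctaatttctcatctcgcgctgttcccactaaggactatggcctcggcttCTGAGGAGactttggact
Eaf2, second window: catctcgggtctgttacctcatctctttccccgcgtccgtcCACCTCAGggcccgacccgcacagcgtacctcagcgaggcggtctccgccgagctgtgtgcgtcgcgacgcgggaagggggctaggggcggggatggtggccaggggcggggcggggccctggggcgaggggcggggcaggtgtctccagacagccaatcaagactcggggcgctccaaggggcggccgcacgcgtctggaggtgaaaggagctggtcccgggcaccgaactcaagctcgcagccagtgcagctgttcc
Plk1: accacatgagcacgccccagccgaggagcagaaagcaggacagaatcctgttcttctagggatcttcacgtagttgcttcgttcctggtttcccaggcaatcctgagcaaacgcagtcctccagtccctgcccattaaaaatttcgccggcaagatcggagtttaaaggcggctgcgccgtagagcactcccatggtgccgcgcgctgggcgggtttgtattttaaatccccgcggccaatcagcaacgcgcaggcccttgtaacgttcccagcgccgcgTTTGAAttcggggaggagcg
Cdk1: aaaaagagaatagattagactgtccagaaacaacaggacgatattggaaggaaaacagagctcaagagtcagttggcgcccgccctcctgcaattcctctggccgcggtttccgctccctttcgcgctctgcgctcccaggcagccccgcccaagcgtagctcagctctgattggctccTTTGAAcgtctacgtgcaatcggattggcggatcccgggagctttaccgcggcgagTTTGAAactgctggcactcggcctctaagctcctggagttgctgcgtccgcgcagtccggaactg

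Over the sets, the 2 motifs were spread unevenly. RefSeq promoters were found for 7371 of the 9250 tested genes, and 878 of them (11.9%) held CNCCTCAG. Among genes called and at least 2-fold lower in both KO libraries it was 78 of 360 (21.7%), and among those at least 2-fold higher 50 of 832 (6.01%). The synaptonemal complex list had it in 4 of 8 promoters and the mitotic cyclins and entry kinases in 0 of 12. Other meiotic lists were near the share over tested genes, with 1 of 8 in the meiotic cohesin and axis list, 1 of 9 in the break-forming list and 2 of 16 in the strand exchange list. For TTTGAA the share was 13.5% over tested genes, 21 of 29 (72.4%) in the spindle list and 6 of 12 in the cyclin list. It was 125 of 832 (15.0%) among the genes at least 2-fold higher and 35 of 360 (9.72%) among those at least 2-fold lower. Over all 32851 promoters of the table the shares were 7.94% for CNCCTCAG and 17.9% for TTTGAA. Of all 9250 tested genes, 1058 (11.4%) were called and at least 2-fold higher, and 456 (4.93%) called and at least 2-fold lower, in both KO libraries. Of the 12 most lowered genes 9 had a promoter, of which 3 held CNCCTCAG and 2 TTTGAA. Of the 12 most raised 8 had one, of which 0 held CNCCTCAG and 1 TTTGAA. All of these are counts of letters in a window and are given without a test.

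Mitotic cyclins and the kinases that start mitosis were higher in the KO cells. Of 20 such genes 18 were called higher and 0 lower, with a median log2 difference of 1.34 against 0.08 over all genes, and 18 or 17 of the 20 were called higher with CPM, thinned cells or DESeq2. Plk1, a kinase of mitotic entry and spindle assembly, had 0.370 normalised UMIs per cell in WT against 2.28 (KO A) and 2.59 (KO B) (6.58-fold; log2 2.68, SE 0.0954, adjusted p = 1.74e-22). Both KO libraries lay between the WT spermatocytes and the 4.53 of WT differentiating spermatogonia. Cdk1, the kinase at the centre of mitotic entry, had 0.481 in WT against 2.70 and 2.53 (5.43-fold). Its partners followed, with Ccnb1 at 0.490 against 2.27 and 2.61 and Ccna2 at 0.914 against 3.63 and 3.72. Cks2, a small CDK-binding subunit, had 1.32 against 5.92 and 5.98. The inhibitory kinase gene Pkmyt1 was also higher, with 0.0675 against 0.428 and 0.364, above the 0.0816 of WT differentiating spermatogonia as well. Summed over the list the level was 839 CPM in WT spermatocytes, 2785 (KO A) and 2918 CPM (KO B), and 3369 CPM in WT differentiating spermatogonia.

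**Figure D3:**
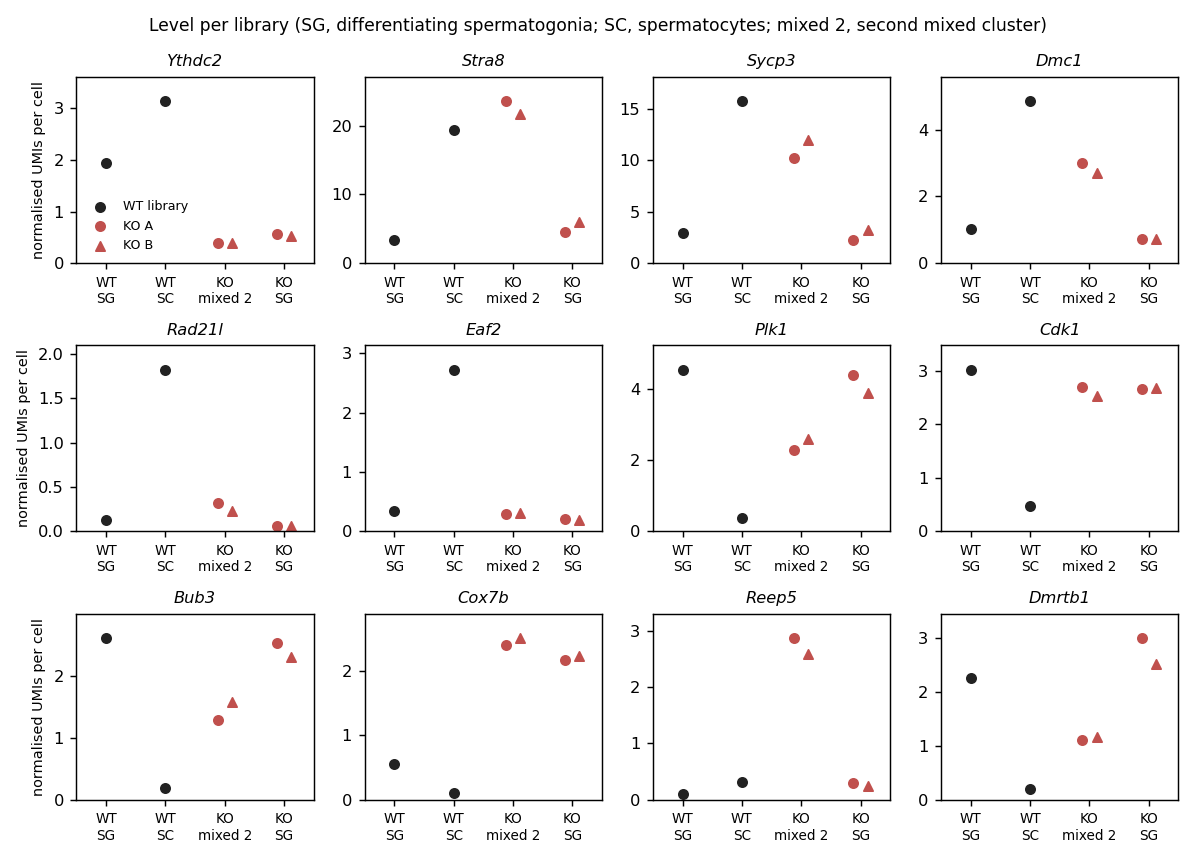
Normalised UMIs per cell (y axis, linear scale) of 12 genes in WT differentiating spermatogonia, WT spermatocytes, KO second mixed cells and KO differentiating spermatogonia (x axis), with 1 point per library. Plk1, Cdk1 and Bub3 in KO second mixed cells sit above WT spermatocytes and Eaf2 and Rad21l below them, while Reep5 and Cox7b in KO second mixed cells are above both WT groups.

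Spindle, kinesin and kinetochore genes were more mixed, with 23 of 33 called higher and 4 lower (median 0.45). Bub3, a spindle checkpoint protein, had 0.196 in WT against 1.29 (KO A) and 1.58 (KO B) (7.33-fold; log2 2.80, SE 0.116, adjusted p = 1.14e-20). Incenp, of the chromosomal passenger complex, was 3.18-fold higher and Kif20a, a kinesin of cytokinesis, 3.14-fold higher. Cenpf, a kinetochore protein, had 11.1 against 13.05 and 14.1, a small difference whose call was lost with no filter and with the KO cells of both mixed clusters. Of 12 condensin, topoisomerase and Ki-67 genes, 7 were called higher and 2 lower (median 0.36). Mki67, the proliferation marker, had 3.22 in WT against 5.64 (KO A) and 6.90 (KO B), and Smc2, a condensin core subunit, was 1.88-fold higher. Top2a had 15.6 against 13.02 and 13.7, a small difference whose call as lower was lost with CPM, thinned cells, no filter and the KO cells of both mixed clusters.

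The ubiquitin ligase that ends mitosis, APC/C, and its E2 enzymes had 12 of 19 genes called higher and 4 lower (median 0.39). Its activators Fzr1 and Cdc20 were 3.75-fold and 2.68-fold higher, and its E2 enzyme Ube2c had 1.69 in WT against 5.22 (KO A) and 5.33 (KO B). S phase genes had no common direction, with 12 of 25 called higher and 10 lower, or 3 and 5 with DESeq2. Cdt1, a replication licensing factor, was 4.03-fold higher, at 0.0945 in WT against 0.374 and 0.388, and Slbp, which binds histone mRNA, was 1.34-fold lower. In the authors' per-cell scores, the median G2M score was 0.170 in WT spermatocytes and 0.280 (KO A) and 0.291 (KO B), and the median S score was 0.220 against 0.196 and 0.193.

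Genes of differentiating spermatogonia were higher in the KO cells than in WT spermatocytes, with 11 of 15 called higher and 1 lower (median 1.07). Sohlh1, a transcription factor of spermatogonial differentiation, had 0.162 in WT against 1.11 (KO A) and 1.12 (KO B) (6.88-fold; log2 2.71, SE 0.117, adjusted p = 3.68e-20). Dmrtb1 (DMRT6), which is known to shut down the spermatogonial programme, had 0.194 against 1.11 and 1.16, below the 2.27 of WT differentiating spermatogonia. Kit, the receptor that marks differentiating spermatogonia, had 0.228 in WT against 0.686 (KO A) and 0.722 (KO B), close to the 0.725 of WT differentiating spermatogonia. Rhox13 had 4.80 against 4.65 and 4.19 and was not called. Of the 18 undifferentiated spermatogonia genes only 4 passed the filter on low values, with 3 called higher and 1 lower, too few to describe the list.

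Cox7b had the largest log2 difference of the 9250 tested genes, and other genes of energy metabolism were also far higher in the KO cells. Of 45 nuclear genes of the respiratory chain 21 were called higher and 9 lower (median 0.16), and with the KO cells of both mixed clusters 12 were higher and 17 lower, so the balance of calls turned with the choice of KO cells. The added cells of the first mixed cluster were also shallower and richer in mitochondrial transcripts, and the part of either was not tested. A pair of small subunits of cytochrome c oxidase stood out. Cox8a had 0.570 in WT against 5.98 (KO A) and 6.11 (KO B) (10.6-fold; log2 3.39, SE 0.0800, adjusted p = 5.86e-28), beside the 22.97-fold difference of Cox7b. Cox4i1, another subunit of the same complex, had 8.60 against 10.3 and 10.6, and Cox5a had 13.3 against 11.96 and 11.2. In differentiating spermatogonia of the same libraries Cox7b had 0.559 in WT against 2.16 and 2.22 in KO, and Cox8a 1.76 against 6.30 and 6.71. These 2 genes were thus higher in KO cells of both clusters, which come from the same 3 libraries. Of the 12 most raised genes at 20 CPM or more, 7 were also at least 2-fold higher in KO differentiating spermatogonia, Cox7b and Cox8a among them. Of the 12 most lowered, 5 were also at least 2-fold lower there, Ythdc2 among them. The same count over all genes was not made, so neither count can be read as a trait of these genes. Mitochondrially encoded genes had 7 of 13 called lower and 3 higher (median -0.34), and with the KO cells of both mixed clusters 1 was lower and 4 higher.

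Glycolysis and pentose phosphate genes were called higher in 11 of 15 cases and lower in 3 (median 0.52). Tkt, the transketolase of the pentose phosphate pathway, had 0.0650 in WT against 0.516 (KO A) and 0.572 (KO B) (8.37-fold). Tpi1 and Pgam1, enzymes of glycolysis, were 7.94-fold and 4.82-fold higher, the first on 20 UMIs in WT. Gapdh had 5.78 in WT against 8.97 and 8.05, a smaller difference whose call was lost with the KO cells of both mixed clusters. In the citric acid cycle list 9 of 17 genes were called higher and 4 lower (median 0.27). Mdh2, mitochondrial malate dehydrogenase, had 0.896 in WT against 5.89 (KO A) and 6.04 (KO B) (6.65-fold), and Dlst was 2.84-fold higher. Cs, citrate synthase, and Pdha1, of pyruvate dehydrogenase on the X chromosome, went the other way, 2.13-fold and 2.32-fold lower. Prdx3, a mitochondrial peroxidase, had 0.0265 in WT against 0.533 and 0.469.

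Tubulin genes were called higher in 7 of 11 cases and lower in 1 (median 0.55). Tuba1b had 0.0375 in WT against 0.907 (KO A) and 0.857 (KO B) (23.5-fold; log2 4.23, SE 0.149, adjusted p = 1.59e-22), and Tubb5 had 0.311 against 2.69 and 2.29. The WT level of Tuba1b was close to the 0.0380 of Tpi1, so the fold of Tuba1b is imprecise. Tubb4b had 18.7 against 27.4 and 27.2. Tubulin genes have near-identical relatives among which reads can be split, so the level of any 1 of them is uncertain. Reep5, which shapes the endoplasmic reticulum, had 0.315 in WT spermatocytes, 2.88 in KO A and 2.58 in KO B. In WT differentiating spermatogonia it had 0.107, so the KO cells of the mixed cluster were above both WT groups. KO differentiating spermatogonia had 0.291 and 0.244, which was 2.51-fold above WT cells of that cluster and below the mixed cluster. Camk2n1, Rflnb and Ndrg1, the remaining genes among the 12 most raised apart from Mex3d, rest on 7, 8 and 11 UMIs in WT.

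Genes of the cytosolic ribosome were mostly lower or not called, with 41 of 81 called lower and 6 higher (median -0.20), or 30 and 14 with CPM. With the KO cells of both mixed clusters 71 were lower and 2 higher (median -0.80). Rps12 had 22.5 in WT against 12.3 and 12.7, while Rps3a1 had 12.2 against 25.9 and 26.5 and Rps4x, on the X chromosome, 0.490 against 1.59 and 1.70. Ribosomal protein genes have many processed copies in the genome, and reads can be lost to them. The proteasome list had 9 of 32 genes higher and 8 lower with a median of 0.01, which is no shared direction.

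To place the KO cells, each gene's KO levels were set beside 2 WT groups of the same library, differentiating spermatogonia (654 cells) and spermatocytes. Of the 9250 tested genes both KO libraries lay between the WT groups for 4222 (45.6%), above both for 2015 (21.8%) and below both for 1566 (16.9%). All 8 synaptonemal complex genes lay between, as did 13 of 15 crossover genes, 14 of 20 cyclins and entry kinases and 22 of 33 spindle genes. Metabolic lists differed among themselves. Of the 45 nuclear respiratory chain genes 20 lay between and 13 above both, near the shares over all tested genes. Of the citric acid cycle genes 3 of 17 lay between and 9 above both, and of the glycolysis and pentose phosphate genes 4 of 15 between and 9 above both. Of 13 mitochondrially encoded genes 8 lay below both WT groups. At 20 CPM or more, 880 genes were at least 2-fold higher in WT spermatocytes than in WT differentiating spermatogonia. The KO cells came within 2-fold of the WT spermatocyte level for 606 of these and within 2-fold of the spermatogonia level for 566, with 362 in both counts. Of the 807 genes at least 2-fold lower in WT spermatocytes, the KO cells were within 2-fold of the spermatocyte level for 428 and of the spermatogonia level for 708, with 354 in both counts.

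**Figure D4:**
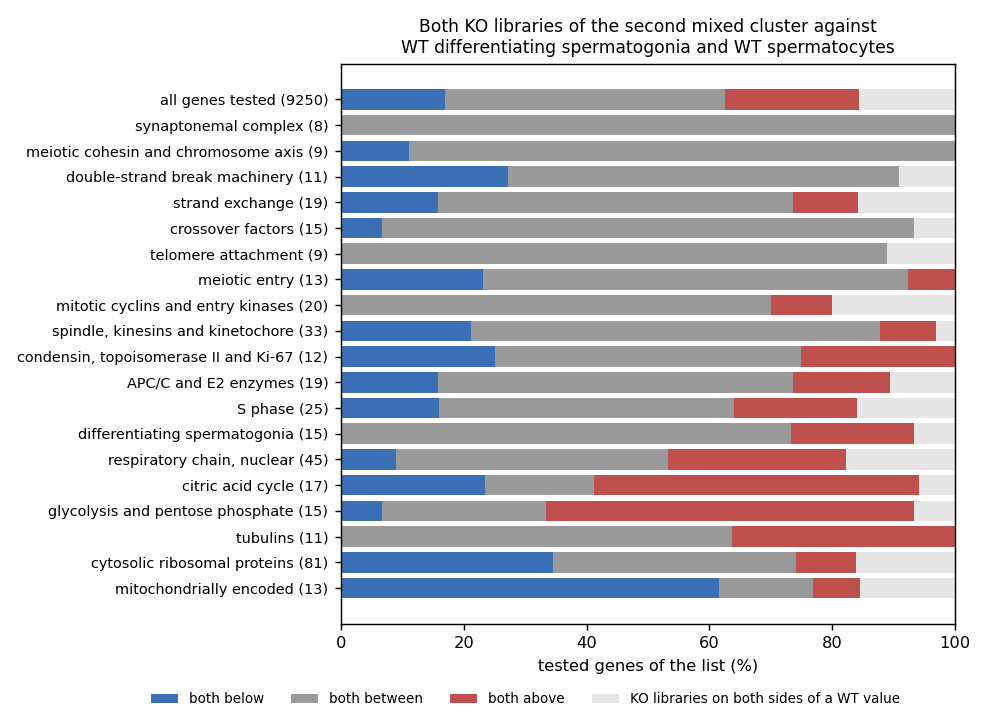
Share of tested genes (x axis, percent) in each list (y axis) for which both KO libraries lay below, between or above WT differentiating spermatogonia and WT spermatocytes, or on both sides of a WT value. All 8 synaptonemal complex genes lie between, whereas 9 of 17 citric acid cycle genes lie above both WT groups.

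Beyond the range of both WT groups, 58 genes at 20 CPM or more were at least 2-fold above both in each KO library, and 8 were at least 2-fold below both. The 58 included Reep5, Tkt, Tubb5, Prdx3, Pkmyt1, Tuba1b, Cox7b, Cox8a and Tpi1. These 2 WT groups leave out WT undifferentiated spermatogonia, and only 7 of the 58 were also at least 2-fold above that group in both KO libraries. Reep5 had 2.97 in WT undifferentiated spermatogonia, Tubb5 25.96, Tuba1b 9.30 and Cox8a 11.5. KO cells of the first mixed cluster were at least 2-fold above both WT groups for 40 of the 58, with Reep5 at 1.95 (KO A) and 1.91 (KO B). The 8 included Ythdc2, Hspa2, Ccnb3 and Dcp2, the last a decapping enzyme with 0.854 in WT spermatocytes, 1.05 in WT differentiating spermatogonia and 0.391 and 0.418 in the KO cells. The same limit holds for these genes. WT undifferentiated spermatogonia had 0.426 for Ythdc2 and 0.490 for Dcp2, near the KO levels, and 0.627 for Hspa2, above them. For Ccnb3 they had 0.0416, below the 0.186 (KO A) and 0.175 (KO B) of the KO cells.

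Single cells show whether both programmes lay in the same cells. Each cell was thinned to 5000 UMIs, which left out 0 cells. The median cell held 66 UMIs of the meiotic lists in WT spermatocytes, 43 in KO A and 42 in KO B, against 29 in WT differentiating spermatogonia and 13 in WT undifferentiated spermatogonia. For the mitotic cyclins and entry kinases the medians were 3 in WT spermatocytes, 11 in KO A, 13 in KO B and 16 in WT differentiating spermatogonia. The unthinned medians were 7, 37, 39.5 and 40. A share of cells with at least 3 UMIs of the meiotic lists and of all mitotic lists was set as the measure, and it was 100% in WT spermatocytes and in both KO libraries, so it separates nothing. With at least 5 UMIs of the meiotic lists and 5 of the entry kinases, a measure chosen after the data were seen, the share was 90.2% in KO A (exact interval 86.4 to 93.1), 90.6% in KO B (87.7 to 93.0) and 25.5% in WT spermatocytes (21.5 to 29.9). WT differentiating spermatogonia had 98.3% and WT undifferentiated spermatogonia 88.9%, so a high share is not particular to the KO cluster. Without called doublets the shares were 90.1%, 90.5% and 25.4%. Unthinned they were 99.7%, 99.4% and 78.0%.

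**Figure D5:**
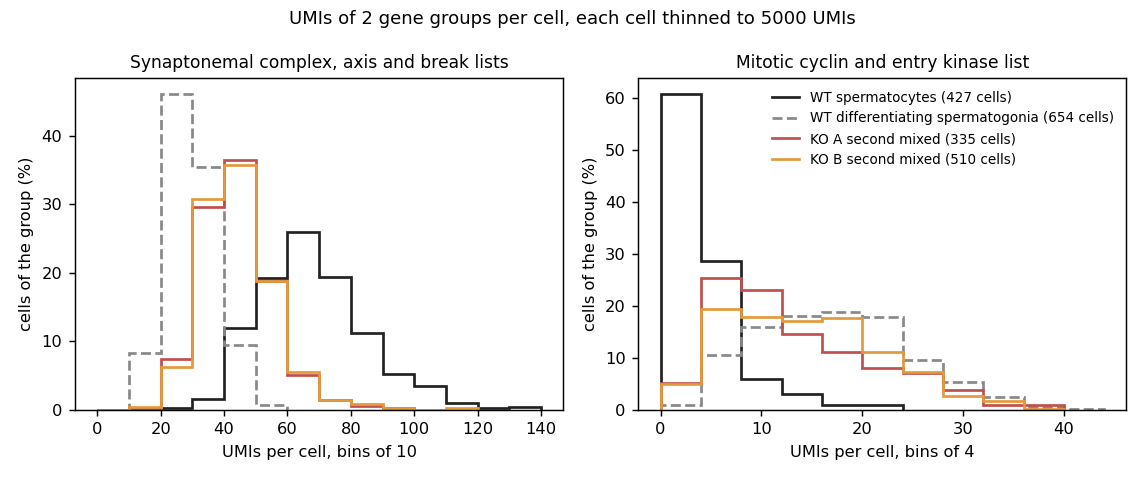
Distribution of UMIs per cell, after thinning each cell to 5000 UMIs, for the meiotic lists and for the mitotic cyclins and entry kinases (x axes), in 427 WT spermatocytes, 654 WT differentiating spermatogonia, 335 KO A and 510 KO B cells (y axis, percent of cells). KO cells centre on 43 and 42 meiotic UMIs, between the WT groups, and on 11 and 13 entry kinase UMIs against 3 in WT spermatocytes.

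Single genes were also counted in the thinned cells. The clusters were drawn from the expression of the same cells, so these shares are a description. Sycp3 UMIs were seen in 96.4% (KO A) and 98.2% (KO B) of KO cells and in 99.3% of WT spermatocytes. The shares were 69.1% in WT differentiating spermatogonia and 42.2% in WT undifferentiated spermatogonia. A Plk1 UMI beside a Sycp3 UMI was seen in 49.9% of KO A cells (exact interval 44.4 to 55.3), 55.5% of KO B cells (51.1 to 59.9) and 10.1% of WT spermatocytes (7.38 to 13.3). Unthinned these shares were 71.6%, 77.2% and 17.6%. WT differentiating spermatogonia had 54.7%, near the KO shares. Stra8 was detected in 99.7% (KO A) and 99.8% (KO B) of KO cells and 97.9% of WT spermatocytes, against 54.0% of WT differentiating spermatogonia. For Eaf2 the shares were 11.04% (KO A) and 13.1% (KO B) against 64.4% in WT spermatocytes. WT differentiating spermatogonia had 14.8%, near the KO shares, and WT undifferentiated spermatogonia had 2.22%. Cox7b was seen in 62.4% (KO A) and 64.1% (KO B) of KO cells, in 4.92% of WT spermatocytes and in 20.8% of WT differentiating spermatogonia. Unthinned, Eaf2 was seen in 33.7% of both KO libraries and 89.7% of WT spermatocytes, and Cox7b in 94.6%, 93.5% and 11.2%. No captured cell type is known to lack these transcripts, so no share that free RNA would give was measured. The intervals cover counting error only.

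Chromosome and motif classes differed little. The 354 tested genes of the X chromosome had a median log2 difference of -0.03. The 1018 genes with the highest U-motif scores of the authors had a median of -0.01 against 0.09 for the 8232 others. The authors' mark of highly variable genes comes with the same data, so it cannot serve as a separate check on the calls. Genes that the authors marked as highly variable were called in 78.2% of 1915 cases and the other genes in 59.7% of 7335.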

How the data were processed

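Per the submitters' processing notes, the tools included Cell Ranger 3.0.2 and Scanpy, and the build was GRCm38 (mm10). The deposited matrix holds natural log values, ln(1 + UMI count/size factor), which the authors computed for 4528 cells and 14103 genes. The deposited cell table gives library, cluster, the authors' size factor and cell-cycle scores, UMI counts, the mitochondrial fraction and a log2 sum over U-motif genes, and the deposited gene table a U-motif score. Undoing the log gave whole counts for 100% of values within 0.001. The planned edgeR test assumed raw counts, so limma 3.58.1 (R 4.3.3; empirical Bayes with a mean-variance trend, Benjamini-Hochberg adjustment) on log2(mean normalised UMIs + 0.01) became the main test. The log2 scale understates changes of low genes. edgeR 4.0.16 and DESeq2 1.42.0 on the recovered counts were alternatives, with other scalings, filters, thinning to 5000 UMIs and other cells.

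Cells were split into libraries by the deposited sample number, and the KO libraries could not be tied to a particular KO sample. Every cell held at least 3000 genes. Scrublet in scanpy 1.11.5 called 22 of 4528 cells doublets (6 WT, 5 KO A, 11 KO B), a share too low to rely on, and they were kept. Members and lists were chosen with earlier results of these data known. The rule for named genes took 16 listed genes, the 12 largest differences each way among called genes at 20 CPM or more (predicted, ribosomal and mitochondrially encoded genes left out), and in each list the 3 largest differences and up to 2 with the highest levels. Promoters, positions and chromosomes come from RefSeq tables of GRCm38.p6 matched by symbol, which placed 9178 of 9250 tested genes. The fit was tested on simulated data first. Depth is given beside the libraries.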

Additional observations from a re-analysis of the deposited data

How the results depend on the processing

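The number of called genes (5878) was 3173 with DESeq2. Genes called higher (3262) numbered 1970 with a filter at 0.25 normalised UMIs and 1442 with DESeq2, and genes called lower (2616) numbered 1731 with DESeq2 and 1571 in thinned cells. Fewer genes are tested under the stricter filter, and the cause of the other shifts was not tested. Genes at 2-fold or more in both KO libraries (740) numbered 364 at a minimum of 50 CPM. Of these, genes higher in KO (460) numbered 759 at a minimum of 10 CPM and 182 at 50 CPM, and genes lower in KO (280) numbered 186 with CPM scaling and 182 at 50 CPM. Leaving out either KO library gave 829 to 906 genes at 2-fold or more, 519 to 564 higher and 310 to 342 lower, since 1 library then has to pass instead of 2. It left no residual degree of freedom, so no calls could be made. Of 31 lists, 14 had a median above that of all genes, and 13 to 14 without either KO library. In thinned cells, list medians moved, as did the all-gene median (0.19). They were -0.64 for the synaptonemal complex, -0.75 for telomere attachment and 0.71 for the spindle list. The crossover list had 7 of 15 called lower and 2 higher (median -0.33). The strand exchange list had 9 of 19 called lower and 3 higher (median -0.17). With CPM, the medians of the synaptonemal complex, telomere attachment and spindle lists were -0.65, -0.92 and 0.57. With entry kinases alone at 5 UMIs or more, added after the data were seen, the cells with both programmes were 90.2% (KO A), 90.6% (KO B) and 25.5% (WT) in place of 100% each.

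Of 161 named genes 152 were called, and 120 kept direction and call in every alternative that gave a value, while 149 kept direction. Calls were lost for 19 with DESeq2, 18 with no filter, 12 with the KO cells of both mixed clusters, 11 in thinned cells, 9 with CPM, 8 with edgeR and RLE, 3 with edgeR and TMM, and 2 with TMM in limma. The median of a list relative to that of all genes turned its sign, with both values larger than the SD between KO libraries, for the respiratory chain (-0.0583) and the mitochondrially encoded genes (0.22) with both mixed clusters, for the proteasome (0.028) and RNA decay (0.0282) with the filter at 0.25, and for RNA decay with both mixed clusters (0.0677). Further turns, with at least 1 of the values under that SD, were those of the piRNA list (0.0193; -0.0009 with CPM, -0.0022 with TMM, -0.0109 and -0.0107 with edgeR and TMM or RLE, -0.006 with DESeq2, -0.0727 without KO replicate 2), p53 and apoptosis (0.0135 with both mixed clusters) and the m6A machinery (0.0268 in thinned cells). Of called genes, Stra8 (-0.24), Smc4 (-0.27) and mt-Co3 (0.29) turned their sign with both mixed clusters. Of genes not called, the log2 difference turned for Dazl (0.0469 with CPM, 0.0308 in thinned cells), Rhox13 (0.0767, thinned), Tcp1 (0.0701 with CPM, 0.057 thinned) and Mdm2 (0.055 with CPM, 0.0877 with both mixed clusters). It also turned for Psmb1 (-0.0169 with TMM, -0.0376 and -0.053 with edgeR and TMM or RLE, -0.0532 with DESeq2, -0.29 with both mixed clusters), Kdm1a (-0.0013, -0.0167 and -0.0169 with edgeR and TMM, edgeR and RLE, and DESeq2) and Mga (-0.0007 with TMM, -0.0182 and -0.0337 with edgeR and TMM or RLE, -0.0355 with DESeq2, -0.0394 with both mixed clusters). The cause was not tested.

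No paired analysis was possible because there is a single WT library, so that the groups share fewer than 2 replicate numbers, and the KO libraries could not be tied to a sample. A single WT library limits every value, and genes of a few UMIs in WT, such as Camk2n1 with 7, have imprecise folds.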

Other observations

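Several further gene groups had no common direction or moved in part. Of 18 genes of the m6A machinery 6 were called higher and 8 lower, with a median log2 difference of -0.02 (0.09 with CPM and 0.21 in thinned cells). With DESeq2 1 was higher and 6 lower. The m6A list includes Ythdc2 itself, its lowest member (log2 -2.96). The reader gene Igf2bp1 had 0.388 normalised UMIs per cell in WT against 0.788 (KO A) and 0.768 (KO B), while the writer subunit gene Zc3h13 had 5.63 against 3.60 and 3.48. Of 29 RNA decay genes 7 were called higher and 8 lower (median 0.03), or 1 and 5 with DESeq2. Upf3b, a factor of nonsense-mediated decay, was 2.22-fold higher and the deadenylase gene Cnot6l 1.82-fold lower. In the piRNA list 4 of 13 genes were called higher and 3 lower (2 and 3 with DESeq2), with Tdrd1 at 0.0722 against 0.208 and 0.224 and the germ cell helicase gene Ddx4 at 3.46 against 2.25 and 2.30.

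Of 11 integrated stress response genes 6 were called higher and 2 lower (2 and 2 with DESeq2), led by Phgdh, a serine synthesis enzyme, with 0.0407 in WT against 0.218 and 0.261. Atf4, the central factor of that response, had 0.454 against 0.786 and 0.844. Of 11 genes of p53 and apoptosis 5 were called higher and 2 lower (3 and 0 with DESeq2), with Trp53 at 0.0712 against 0.266 and 0.290 and Mdm2 at 0.929 against 0.840 and 0.926, the latter not called. Among 17 repressors of meiotic genes 7 were called higher and 4 lower. E2f6, a repressor of germ cell genes in somatic cells, had 0.102 in WT against 0.487 (KO A) and 0.469 (KO B), and the DNA methyltransferase gene Dnmt3b had 0.0428 against 0.223 and 0.285. Of 5 MHC genes that passed the filter, out of 12 listed, 3 were called lower and 2 higher. H2-K1 had 12.5 in WT against 5.63 and 3.87, H2-Ab1 1.43 against 0.271 and 0.187, and H2-T23 0.0545 against 0.307 and 0.285. Genes of this family are near copies of each other, so reads can be split among them. The CCT chaperonin list had 1 of 7 genes higher and 2 lower, with a median of -0.07 that was 0.07 with CPM and 0.06 in thinned cells.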
